A study of Mus musculus with 2 samples.

Results

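The 7 genes described here encode the keratins of the inner root sheath, the sleeve of hardened cells that encloses and moulds the growing hair shaft in the hair follicle. They were taken by symbol from the 32285 genes measured, and all 7 were found. Krt25, Krt26, Krt27 and Krt28 encode type I keratins and Krt71, Krt72 and Krt73 encode type II keratins. Single-cell RNA sequencing had been performed on the dorsal skin of male C3H/HeN mice, an inbred strain with no transgene or deletion named in its labels. The control mice received vehicle, and the mice of the TP group, a model of androgenetic alopecia (AGA, pattern hair loss driven by androgens), received testosterone propionate (TP) at 0.5 mg per day by subcutaneous injection, the back having been shaved. Treatment began at 7 weeks of age and skin was collected at 9 weeks, with 15 mice pooled into 1 library per group. A further group that also received an antibody is not analysed here. With 1 library per group no test between groups was possible, and the intervals below, all at 95%, cover counting error only and not differences between animals, dissociations or libraries.

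A keratin filament is built from pairs of 1 type I and 1 type II chain, so a cell that makes a filament needs transcripts of both types. The inner root sheath arises from matrix cells at the base of the follicle and has 3 concentric parts, the outer Henle layer, the Huxley layer and the cuticle that interlocks with the hair shaft. Its cells also make trichohyalin, which is cross-linked to the keratins as the sheath hardens. Krt25, Krt27, Krt28 and Krt71 are known from all layers of the sheath, whereas Krt26, Krt72 and Krt73 are known mainly from its cuticle. Mutations of Krt25 and Krt71 are known to give curly or wavy coats.

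The type I genes lie side by side on chromosome 11 and the type II genes on chromosome 15, all on the minus strand of GRCm38. The type I group spans chr11:99315516-99374903, a stretch of 59388 bases that holds no other protein-coding gene in RefSeq. Krt25 (ENSMUSG00000035831) lies at chr11:99315516-99322951, Krt26 (ENSMUSG00000075570) at chr11:99328484-99337965, Krt27 (ENSMUSG00000017588) at chr11:99345565-99351118 and Krt28 (ENSMUSG00000055937) at chr11:99365007-99374903. The type II group spans chr15:101733949-101802360, a stretch of 68412 bases in which Krt71, Krt72 and Krt73 are likewise the sole protein-coding genes. Krt71 (ENSMUSG00000051879) lies at chr15:101733949-101743097, Krt72 (ENSMUSG00000056605) at chr15:101776172-101786520 and Krt73 (ENSMUSG00000063661) at chr15:101793304-101802360. The members are paralogs, and whether reads of one were assigned to another was not tested.

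Promoter sequence of all 7 genes was available from RefSeq (GRCm38.p6) and is shown because Krt71 and Krt73, which are found at unequal levels in the same sheath cells below, share letters upstream of their starts. Within the 250 bases before the start, the longest run common to any pair of the 7 genes was TTGCAAGCCCAGCA, 14 letters that begin 196 bases before the start of Krt71 and 154 bases before that of Krt73. Of 32817 mouse promoters of the same length, 2 hold this run on either strand, and these are the promoters of Krt71 and Krt73 themselves. The same pair also shares TTTCATGTTG, which 26 of the 32817 promoters (0.0792%) hold. Capitals mark both runs in the following windows, written from the minus strand in the direction of transcription, for Krt71 at chr15:101743098-101743347 and Krt73 at chr15:101802361-101802610.
Krt71 promoter: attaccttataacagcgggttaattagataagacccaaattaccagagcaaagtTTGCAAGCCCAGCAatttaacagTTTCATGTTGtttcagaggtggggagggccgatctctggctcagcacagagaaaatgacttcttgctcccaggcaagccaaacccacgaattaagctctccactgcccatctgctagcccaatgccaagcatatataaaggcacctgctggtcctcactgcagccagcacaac
Krt73 promoter: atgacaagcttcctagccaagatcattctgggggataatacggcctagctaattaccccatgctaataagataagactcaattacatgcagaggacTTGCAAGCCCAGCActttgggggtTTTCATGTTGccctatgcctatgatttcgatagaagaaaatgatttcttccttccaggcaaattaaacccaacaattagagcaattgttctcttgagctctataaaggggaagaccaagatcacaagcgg

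The 60 bases nearest the start are shown for the 7 genes because a search for exact letters gave no match in Krt72 there. In them the letters TATAAA, the core of a TATA box, occur on the gene's own strand in 6 of the 7 members and in 944 of 32817 promoters (2.88%). Searched on both strands of the whole 250 bases, TATAAA is held by 4060 promoters (12.4%) and by all 7 members, in Krt72 as its reverse complement only. In Krt25, Krt26, Krt28 and Krt73 the run begins 30 bases before the start, in Krt71 40 bases and in Krt27 15 bases before it. Krt72 reads tatttaa from 30 bases before its start, and inexact matches were not searched in any promoter. A match is a description of letters and not evidence that a factor binds. Capitals mark TATAAA in the following stretches, all from the minus strand, for Krt25 at chr11:99322952-99323011, Krt26 at chr11:99337966-99338025, Krt27 at chr11:99351119-99351178, Krt28 at chr11:99374904-99374963, Krt71 at chr15:101743098-101743157, Krt72 at chr15:101786521-101786580 and Krt73 at chr15:101802361-101802420.
Krt25 start: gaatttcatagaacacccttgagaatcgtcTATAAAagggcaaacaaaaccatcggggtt
Krt26 start: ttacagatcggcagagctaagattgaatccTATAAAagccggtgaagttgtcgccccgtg
Krt27 start: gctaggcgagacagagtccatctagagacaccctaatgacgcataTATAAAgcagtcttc
Krt28 start: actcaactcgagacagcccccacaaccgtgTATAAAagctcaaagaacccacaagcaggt
Krt71 start: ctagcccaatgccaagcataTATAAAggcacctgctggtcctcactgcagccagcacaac
Krt72 start: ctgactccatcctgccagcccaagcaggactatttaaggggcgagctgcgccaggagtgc
Krt73 start: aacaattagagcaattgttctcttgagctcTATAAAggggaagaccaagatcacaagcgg

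The files held 45709 control and 25931 TP barcodes, of which 303 occurred in both libraries, and 39076 control and 18542 TP cells were kept, with medians of 2055 and 4805.5 unique molecular identifiers (UMIs, each the tag of 1 captured transcript). More TP than control barcodes exceeded the limit on mitochondrial counts, 22.6% against 7.58%. Levels are given as counts per 1000000 UMIs (CPM). The 3′ chemistry counts 1 tag per transcript, so no correction for gene length enters these levels. Cells were grouped into 31 clusters without using the 7 genes, and clusters were named from other markers, for the inner root sheath Tchh, Gata3, Padi1, Padi3, Tgm3 and Cux1. The 7 genes entered the naming only as a bar. Clusters with any of them among the leading genes and another best class stayed unnamed, and so outside the non-epithelial classes below. Clusters 0 and 15 took the name inner root sheath-like. Transcripts of the 7 genes were also found where no keratin filament is made. In the 9 clusters of fibroblast-, papilla-, sheath cup-, endothelial-, immune- and melanocyte-like cells (the non-epithelial classes) the summed level ran from 1183 to 7106 CPM in control and from 224 to 1377 CPM in TP, and this level is called the background below. No value from empty droplets was computed, and where these transcripts came from was not tested. The highest value in both libraries came from cluster 29, a papilla-like cluster with medians of 696 control and 665.5 TP UMIs per cell, and without it the range ended at 2839 CPM in control and 692 CPM in TP.

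Over all kept cells the inner root sheath keratins were lower in the TP library. The 7 genes together took 3618 CPM in control (386172 UMIs) and 1236 CPM in TP (163023 UMIs), a ratio of TP over control of 0.342 (0.340 to 0.344). Taken back from the mean of ln(counts per 10000 + 1), a measure that gives each cell the same weight and damps high values, the ratio was 0.142. With cells thinned to 1000 UMIs each, which also weights them equally but drops shallower cells, the ratio was 0.283. Within inner root sheath-like cells the same sum was higher in TP, 20963 against 11855 CPM, a ratio of 1.77 (1.75 to 1.78). These cells made up 15.3% of control cells (5987 of 39076, 15.0% to 15.7%) and 3.10% of TP cells (574 of 18542, 2.85% to 3.36%), a ratio of shares of 0.202 (0.185 to 0.220), which was 0.318 when the members were among the clustering features. The TP library thus held a smaller share of sheath-like cells, in which the keratins took a larger part of the pooled UMIs. Pooling gives deep cells more weight. With each sheath-like cell thinned to 1000 UMIs, the median was 8 member UMIs in control and 9 in TP. The 10th percentile was 3 and 2, and the 90th 19 and 26. A ratio that gives each cell the same weight was not computed within these cells. When each of the 31 clusters was given the control's share of UMIs in both libraries, the ratio of the summed level over all cells was 1.10 in place of 0.342.

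Krt25 was the most abundant member in both libraries. It stood at 1438 CPM in control and 476 CPM in TP, a ratio of 0.331 (0.328 to 0.334). Krt71, the type II chain of the whole sheath, followed with 1222 and 336 CPM, and its ratio of 0.275 (0.272 to 0.278) was the lowest of the 5 abundant members. Krt28 measured 442 and 175 CPM with a ratio of 0.397 (0.390 to 0.403). These 3 genes held most of the family's UMIs in each library, and the same order of the 5 abundant members, Krt25, Krt71, Krt28, Krt73 and Krt27, was found in both. Krt73, of the sheath cuticle, measured 334 and 145 CPM with a ratio of 0.433 (0.425 to 0.440). Krt27, of all sheath layers, measured 174 and 99.4 CPM with a ratio of 0.570 (0.558 to 0.583). The remaining members, Krt72 and Krt26, were rare. Krt72 gave 4.63 CPM in control (494 UMIs) and 3.31 CPM in TP (437 UMIs), a ratio of 0.716 (0.628 to 0.816). Krt26 gave 2.34 CPM (250 UMIs) and 0.629 CPM (83 UMIs), a ratio of 0.269 (0.207 to 0.346). All 7 ratios were below 1 and none of their counting intervals reached 1. No share of all genes is given for this count. By the study's limit of 2-fold, on log2 of counts per 10000 plus 0.1, 4 of the 7 were lower in TP (Krt25, Krt28, Krt71 and Krt73) and none was higher, where 0.911% of 17570 genes were lower and 1.7% higher. No background was subtracted for this count. In the non-epithelial classes Krt25 stood at 685 CPM in control and 109 CPM in TP and Krt71 at 628 and 83.0 CPM. Krt28 stood there at 203 and 43.9 CPM and Krt73 at 149 and 39.6 CPM. The median log2 difference of the members was -1.15, against -0.06 for all genes tested. On this scale Krt26 stood at -0.22, since the pseudocount damps a gene so rare. The count was 5 members after every cell was thinned to 1000 UMIs, 3 with TMM factors (edgeR's scaling between libraries), 2 with a pseudocount of 1 per 10000 and 0 with the control's cluster shares. The shares of all genes given above hold for the first count only, and none is given for these alternatives.

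The type I genes summed to 2057 CPM in control and 752 CPM in TP, a ratio of 0.365 (0.363 to 0.368), and the type II genes to 1561 and 484 CPM, a ratio of 0.310 (0.307 to 0.313). The type I share of the family's UMIs was therefore 56.8% in control and 60.8% in TP.

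Within the inner root sheath-like cells each of the 5 abundant members was higher in TP. Krt27 differed most, with 494 CPM in control and 1648 CPM in TP, a ratio of 3.33 (3.22 to 3.46). Krt25 measured 5118 and 9187 CPM with a ratio of 1.80 (1.77 to 1.82). Krt71 measured 4351 and 7290 CPM with a ratio of 1.68 (1.65 to 1.70). The pair of main chains, Krt25 and Krt71, thus moved by close amounts, whereas the type I chain Krt27 moved further. Krt73 measured 853 and 1363 CPM with a ratio of 1.60 (1.54 to 1.66), and Krt28 measured 1035 and 1473 CPM with a ratio of 1.42 (1.38 to 1.47). Krt26 gave 24 control UMIs and 1 TP UMI and Krt72 gave 35 and 4, with ratios of 0.166 (0.004 to 1.02) and 0.455 (0.117 to 1.27), so that no difference was detectable at this depth. With a lower limit on the naming score, which added clusters 3 and 23 to the class, the ratio of Krt26 was 0.307 (0.060 to 0.971). For Krt72 the direction depends on which cells the class takes in. The ratio was 2.58 (2.12 to 3.13) with doublets kept, 2.36 (1.94 to 2.87) at a clustering resolution of 0.5, 2.43 (2.03 to 2.91) with the members among the features, 2.15 (1.76 to 2.61) without integration and 2.77 (1.94 to 3.95) with the lower limit on the naming score. Of the 5 members with at least 50 UMIs here, 1 was at least 2-fold higher (Krt27) and none lower, where 0.538% of 11152 genes were higher and 0.547% lower. Their median log2 difference was 0.74, against -0.12 for all genes tested. In the non-epithelial classes the sum moved the other way, from 1754 to 300.5 CPM, a ratio of 0.171 (0.166 to 0.176). Subtracting that level from the sheath-like cells of the same library gave a ratio of 2.05 for the sum.

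**Figure D1:**
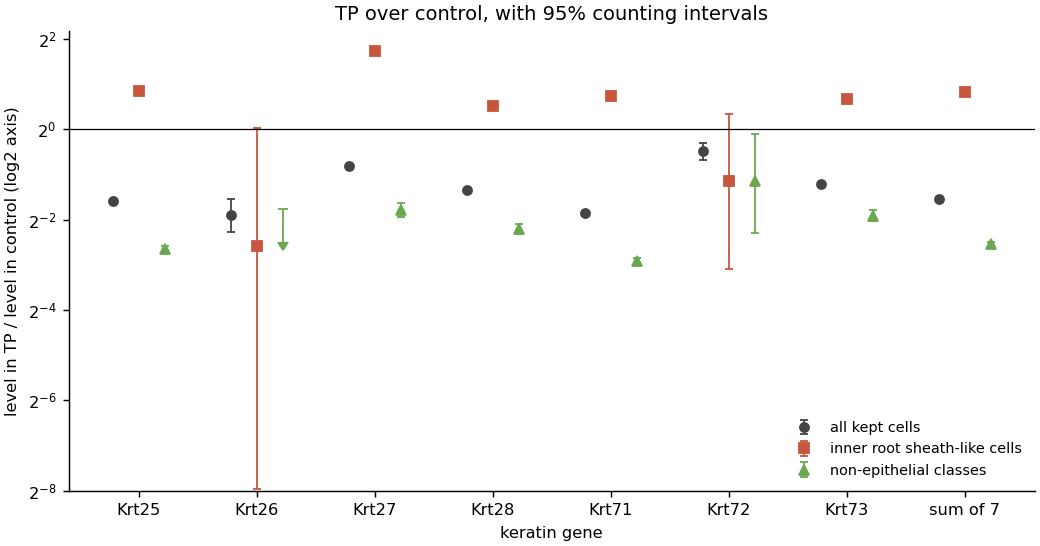
Level in the TP library divided by the level in the control library for each keratin gene and for their sum (log2 axis), over all kept cells (circles), inner root sheath-like cells (squares) and non-epithelial classes (triangles), with 95% counting intervals and a line at 1. The 5 abundant genes lie below 1 over all cells and above 1 in sheath-like cells, and the arrow for Krt26 starts at the upper bound of a ratio whose TP count was 0.

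The sheath-like cells of the libraries were not the same mixture. Finer clustering split cluster 0 into a lower-level group, finer cluster 2, led by Krt71, Gm36660 and Slc30a1, and a high-level group, finer cluster 8, led by Krt71, Sytl2 and Krt25. By the same naming rule at this finer resolution of 2, clusters 8 and 12 took the name inner root sheath-like and cluster 2 did not. The lower-level group held 57.4% of cluster 0 in control (2642 cells) and 31.7% in TP (133 cells), and the high-level group 40.1% (1846 cells) and 62.6% (263 cells). In the high-level group the 7 genes summed to 17754 CPM in control and 27944 CPM in TP, a ratio of 1.57 (1.56 to 1.59). There Krt25 measured 7698 and 12056 CPM, Krt71 7480 and 10823 CPM, and Krt27 937 and 2561 CPM. In the lower-level group the sum was 7788 and 8025 CPM, a ratio of 1.03 (0.995 to 1.07). Krt25 measured 2984 and 2980 CPM there, whereas Krt71 was lower in TP, 2949 and 2101 CPM, and Krt73 was higher, 611 and 1321 CPM. With the background of each library subtracted, Krt25 measured 2299 and 2872 CPM in this group, the ratio was 1.28 for the sum, 0.870 for Krt71 and 2.77 for Krt73, and that of the sum in the high-level group was 1.73. Cluster 15, led by Cdh6, Tchh and Lypd6, formed finer cluster 12 almost whole, and its sum had a ratio of 1.40 (1.37 to 1.43). When the finer clusters were given the control's shares of UMIs in both libraries, the ratio of the sum within sheath-like cells was 1.41, that of Krt27 2.38 and that of Krt73 1.70.

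**Figure D2:**
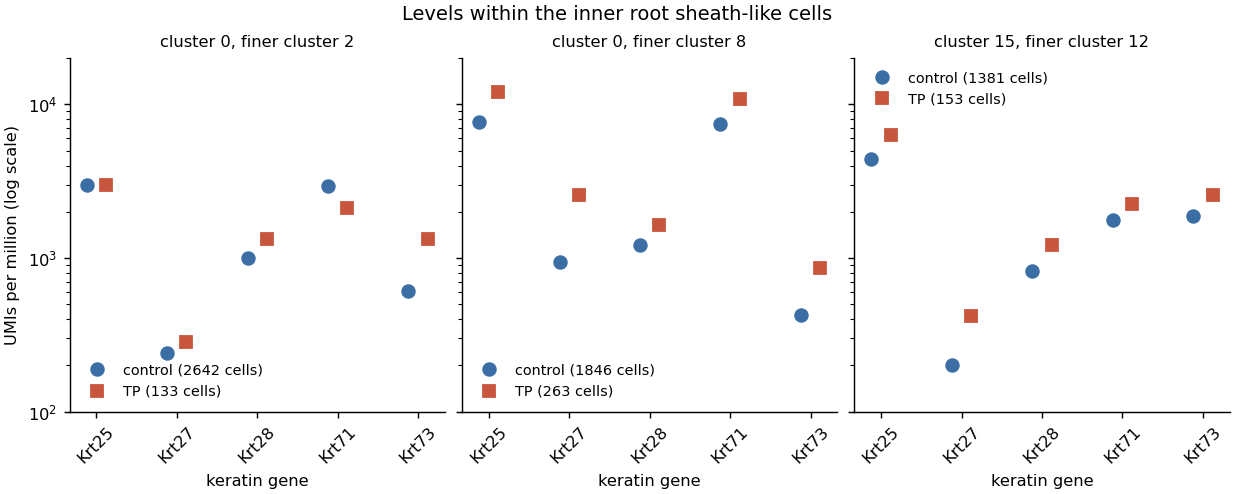
Levels in CPM (log axis) of the 5 abundant keratins in 3 finer clusters of the inner root sheath-like cells, control as circles and TP as squares, 1 library each. Finer cluster 2 did not take the sheath-like name at its own resolution. Krt25 coincides between libraries in finer cluster 2, and all 5 genes are higher in TP in finer clusters 8 and 12.

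The 2 sheath-like clusters differed in which type II chain they held. In cluster 0 Krt71 measured 5190 CPM in control and 8898 CPM in TP, and Krt73 522 and 982 CPM. In cluster 15 Krt71 measured 1779 and 2239 CPM, and Krt73 1868 and 2561 CPM. Krt71 was thus the main type II chain of cluster 0, whereas in cluster 15 Krt73 was as high or higher, with intervals that overlapped in control and lay apart in TP. With the background of each library subtracted, Krt73 was the higher in both libraries of cluster 15. Krt71 then measured 1151 CPM in control and 2156 CPM in TP, and Krt73 1718 and 2521 CPM. As shares of the family's UMIs, Krt71 took 40.7% in cluster 0 and 19.5% in cluster 15 of control, and Krt73 took 4.09% and 20.4%. In TP the shares of Krt71 were 37.8% and 17.5%, and those of Krt73 4.17% and 20.03%. The type I chain Krt25 stayed the largest member in both clusters, with 41.9% and 48.8% of the family's UMIs in control and 42.8% and 49.7% in TP. Krt27 had its higher level in cluster 0, 590 CPM in control and 2041 CPM in TP, against 202 and 416 CPM in cluster 15. Krt28 measured 1103 and 1557 CPM in cluster 0 and 825 and 1211 CPM in cluster 15.

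Another cluster high in the family, cluster 16, was led by Prr9, Crym and Fbp1 and stayed unnamed, since Krt73 was among its leading genes while its markers scored highest for the hair shaft cuticle. It held 1053 control and 325 TP cells, 2.69% and 1.75% of all cells, a ratio of 0.650 (0.573 to 0.737). Its balance of members was unlike that of both sheath-like clusters. Krt73 was the largest member, with 2301 CPM in control and 2676 CPM in TP, and Krt28 measured 1911 and 2224 CPM. Krt25 stood at 2130 CPM in control and 1792 CPM in TP, and Krt71 at 1298 and 739 CPM. In this cluster the sum measured 8388 and 8443 CPM (ratio 1.01, 0.989 to 1.02), while Krt71 was lower in TP (0.569, 0.539 to 0.602) and Krt27 higher (1.34, 1.26 to 1.42). Krt71 took 15.5% of the family's UMIs in control and 8.75% in TP. The background held Krt71 at 628 CPM in control and 83 CPM in TP. Subtracting the background of each library gave a ratio of 0.980 for Krt71, 1.16 for Krt25 and 1.23 for the sum, so the lower levels of Krt71 and Krt25 in TP were not found on that scale. The value subtracted was pooled over the non-epithelial classes. In single non-epithelial clusters of control Krt71 ran from 425 to 1005 CPM, and to 3073.5 CPM with cluster 29. Other background values were not tested. Cluster 3, an unnamed cluster led by cell division genes such as Knl1 and Aspm, also held the family above the pooled background. Its level passed that of every non-epithelial cluster except cluster 29 of control. Cluster 3 measured 5499 CPM in control and 8915 CPM in TP, with Krt25 at 2165 and 3796 CPM and Krt71 at 2039 and 2720 CPM. Cluster 3 held 7.76% of control and 1.61% of TP cells, a ratio of 0.207 (0.183 to 0.233). Cluster 1, an unnamed cluster with Krt71 among its leading genes after haemoglobin genes, moved the other way. It measured 5362 CPM in control and 2312 CPM in TP, a ratio of 0.431 (0.397 to 0.468), with Krt25 at 2067 and 782 CPM and Krt71 at 1908 and 751 CPM. It held 10.9% of control and 1.62% of TP cells, and its median depth was low, 743 UMIs in control and 658 in TP. Cluster 29, the non-epithelial cluster closest to it in depth, held 7106 CPM in control (140 cells) and 1377 CPM in TP (48 cells). Cluster 1 lay below that level in control and above it in TP. The other non-epithelial clusters reached at most 2839 CPM in control and 692 CPM in TP, which cluster 1 exceeded. Whether depth sets the level of cluster 29 was not tested, so the place of cluster 1 against the control background was not resolved.

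**Figure D3:**
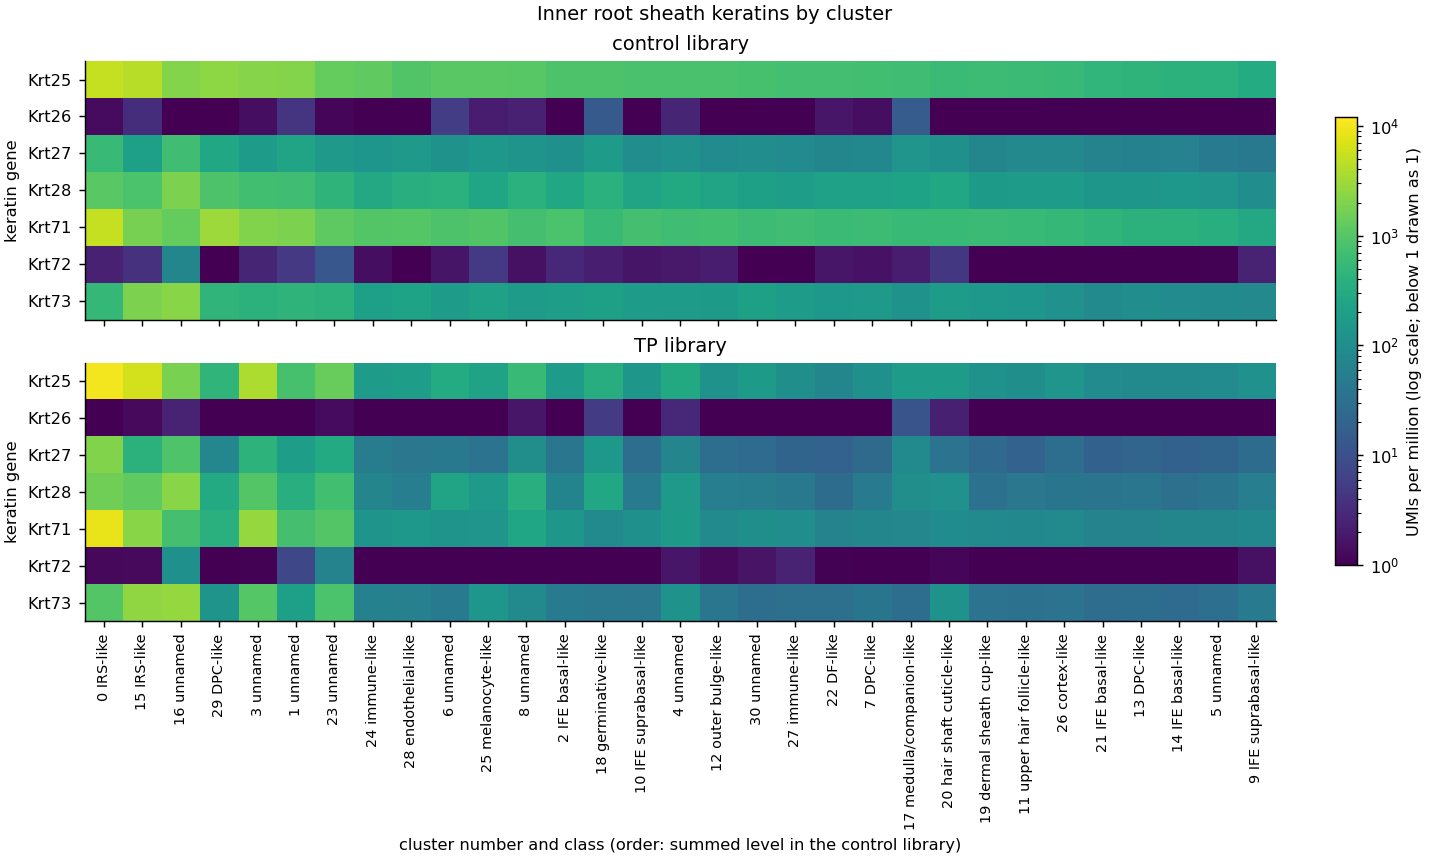
Level of each keratin in CPM (colour, log scale) in the 31 clusters of the control library (top) and the TP library (bottom), ordered by the summed level in control; IRS is inner root sheath, DPC dermal papilla cell, DF dermal fibroblast and IFE interfollicular epidermis. The 5 abundant genes are bright in clusters 0, 15, 16 and 3 of both libraries, the rest of the control panel is brighter than that of TP, and Krt26 and Krt72 are dark outside a few clusters.

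Krt72, a type II chain of the sheath cuticle, had its highest level in cluster 16, where Krt73 was also highest. It stood there at 74.7 CPM in control (65.9 to 84.3, 262 UMIs) and 111 CPM in TP (98.3 to 126, 266 UMIs), a ratio of 1.49. Cluster 23, unnamed as well and led by Prr9, Krt72 and Crym, with 620 cells in control and 158 in TP, came next with 13.0 CPM (8.25 to 19.5, 23 UMIs) and 67.5 CPM (50.4 to 88.5, 52 UMIs). Every other cluster with at least 50 cells in the library lay at or under 7.75 CPM. The sheath-like clusters were among these low ones, with 2.35 and 1.21 CPM in cluster 0 and 3.76 and 1.27 CPM in cluster 15, beside a background of 1.49 and 0.668 CPM. Among the clusters below cluster 23, the interval lay apart from that of the background only in cluster 1 of control (4.73 CPM, 2.80 to 7.47, against 0.952 to 2.21), the shallow cluster described above. For the others Krt72 could not be told from the background at this depth. In cluster 16, after every cell was thinned to 1000 UMIs, 3.64% of 1043 control cells (2.59% to 4.97%) and 6.52% of 322 TP cells (4.08% to 9.80%) had a Krt72 UMI, and without thinning 7.60% and 16.6%. In non-epithelial cells the thinned shares were 0.236% and 0.132%.

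Krt26, a type I chain known from the sheath cuticle, did not follow the other members. Its highest level was in cluster 17, a medulla and companion layer-like cluster led by Soat1, Gpnmb and Kitl, with 15.2 CPM in control (11.4 to 19.98, 52 UMIs) and 11.3 CPM in TP (7.46 to 16.5, 27 UMIs). Cluster 18, a germinative layer-like cluster led by Kcnip1 and Shh, followed with 14.5 CPM (10.6 to 19.3, 46 UMIs) and 5.24 CPM (2.26 to 10.3, 8 UMIs). The intervals of these neighbours overlapped in each library, so their order was not resolved. Cluster 0, where Krt25 and Krt71 were highest, held Krt26 at 1.33 CPM in control and gave no UMI in TP, which allows up to 1.49 CPM by the exact interval. The non-epithelial classes held 13 UMIs of Krt26 in control (0.805 CPM) and 0 in TP.

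**Figure D4:**
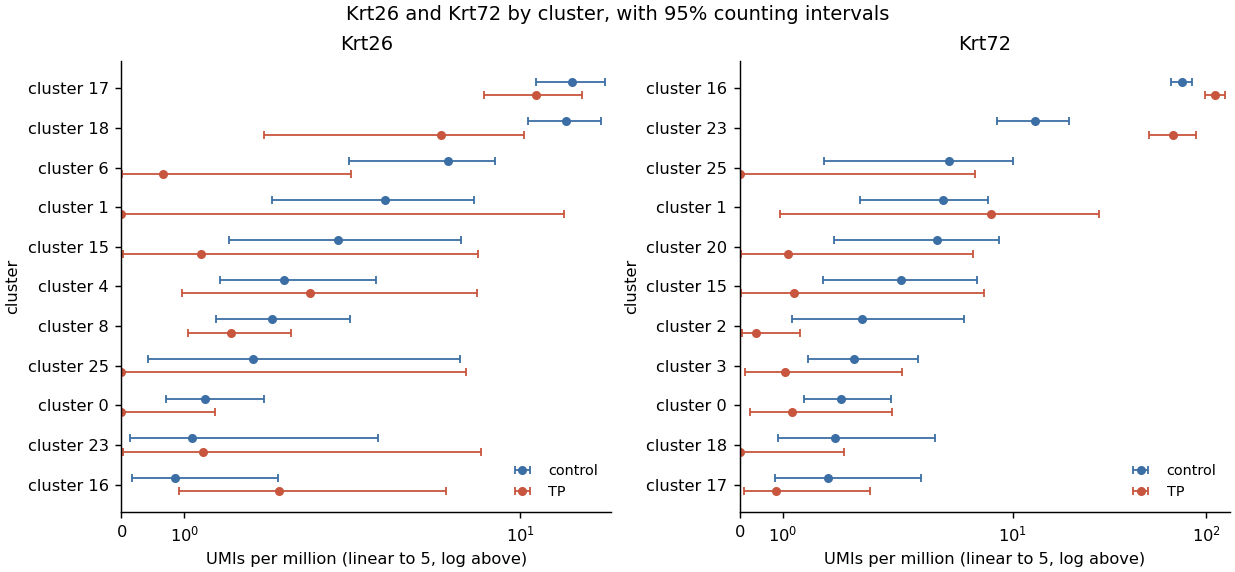
Levels of Krt26 (left) and Krt72 (right) in CPM, on an axis that is linear up to 5 and logarithmic above, for the clusters with the highest control levels and the sheath-related clusters, with 95% counting intervals. Krt26 is highest in clusters 17 and 18 and Krt72 in clusters 16 and 23, in both libraries.

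In the TP library clusters 17 and 18 also showed the type I chains ahead of the type II chains, as did 2 unnamed clusters, 6 (led by Ntn1, Tmtc1 and Sox5) and 8 (led by histone genes), whose markers scored highest for the germinative layer. In cluster 18 of the TP library, where the background is low, Krt25 measured 349 CPM, Krt28 268 CPM and Krt27 149 CPM. Its Krt71 level of 86.5 CPM and Krt73 level of 43.3 CPM were close to the background of 83.0 and 39.6 CPM, whereas the background of Krt25 was 109, of Krt28 43.9 and of Krt27 24.9 CPM. The type I share of the family's UMIs was 85.6% in this cluster, 77.6% in cluster 17, 77.3% in cluster 6 and 74.5% in cluster 8, against 59.0% in the non-epithelial classes and 58.1% in cluster 0. In the control library the shares were 65.2%, 60.5%, 60.3% and 63.2% in these 4 clusters, against 55.6% and 55.2%. The control background of the sum, 1754 CPM, was as high as the level in cluster 17, 1755 CPM, and close to the 2220 CPM in cluster 18. Beside the pooled control background of 203 CPM, Krt28 stood at 407 CPM in cluster 18 and 236 CPM in cluster 17. Krt27 stood at 171 and 134 CPM beside 85.9 CPM, and Krt26 as given above. Single non-epithelial clusters of control reached 875 CPM of Krt28 and 280 CPM of Krt27 in cluster 29, and 379 and 164 CPM without it. Cluster 17 thus lay within this range for both genes, and cluster 18 passed it only with cluster 29 left out. Krt71 lay below its control background of 628 CPM in clusters 18 and 17, at 561 and 569 CPM. The type II chain Krt73 took 9.41% of the family's UMIs in cluster 18 and 7.03% in cluster 17, against 8.51% in the non-epithelial classes. With the higher sum of cluster 18, Krt73 thus stood above its pooled control background there, and not in cluster 17.

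**Figure D5:**
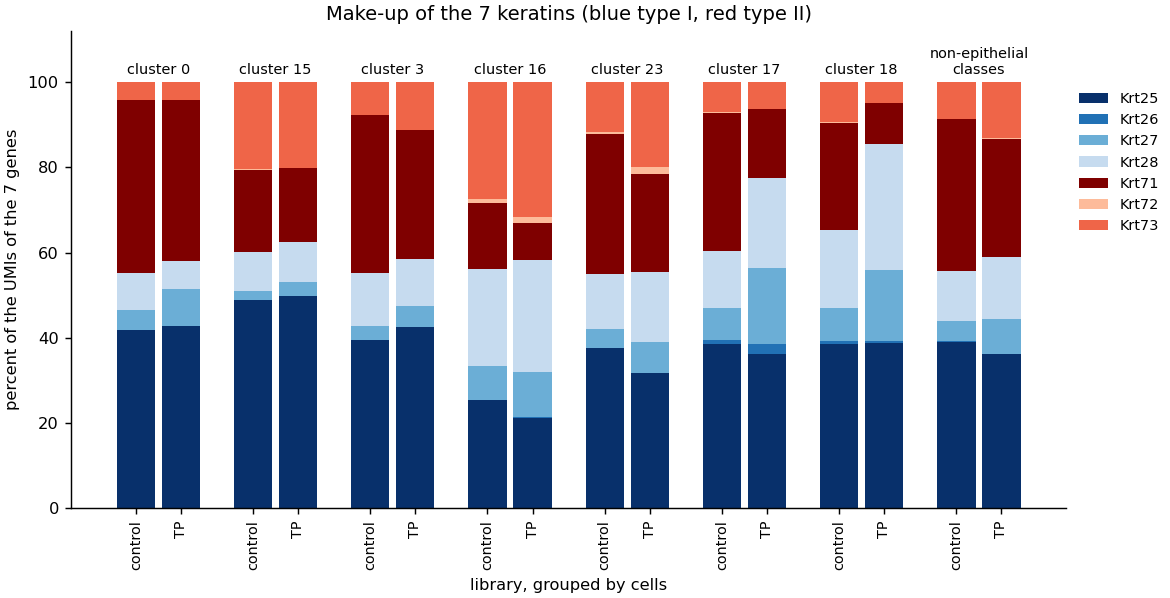
Percent of the UMIs of the 7 keratins that each gene takes, stacked by gene (type I in blues, type II in reds) for 7 clusters and the non-epithelial classes, control and TP library side by side. Krt71 is a large part in cluster 0, Krt73 and Krt28 are larger in cluster 16, and type I genes take 85.6% in cluster 18 of TP.

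In single cells both types of chain were found together. After thinning to 1000 UMIs, 87.8% of 5388 control and 84.01% of 538 TP inner root sheath-like cells had at least 1 type I and at least 1 type II UMI, and 599 control and 36 TP cells were too shallow to be thinned. Non-epithelial cells with both types amounted to 33.1% in control and 4.15% in TP, which is the background for this measure. Krt25 and Krt71 were found together in 75.2% and 69.5% of the sheath-like cells, against 22.8% and 2.37% of the non-epithelial cells. In those sheath-like cells the median was 8 member UMIs per 1000 in control and 9 in TP, and the 90th percentile 19 and 26, so the libraries lay closer in the middle of the range than at its top. Krt25 alone was found in 88.2% of control and 86.4% of TP sheath-like cells, and Krt71 in 84.4% and 75.1%, whereas without thinning the shares were 93.8% and 92.2% for Krt25 and 92.3% and 87.8% for Krt71. For Krt71 the share and the level point in opposite directions, and no order of the libraries is read from the share. Krt27 was found in 22.8% and 31.2% and Krt73 in 41.0% and 52.4% of these cells. In non-epithelial cells the thinned shares, control first, were 47.4% and 13.5% for Krt25, 44.6% and 10.2% for Krt71, 8.63% and 3.23% for Krt27 and 14.1% and 5.14% for Krt73. Median depths were 1735 and 3353.5 UMIs in sheath-like cells and 2360.5 and 4217 UMIs in non-epithelial cells before thinning. In cells with at least 20 member UMIs, the type I share had a median of 55.4% in cluster 0 of control (10th to 90th percentile 36.4% to 71.2%) and 57.8% in TP (44.8% to 72.7%). Cluster 15 had medians of 61.1% and 63.5%, and cluster 16 of 55.6% and 57.1%.

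The family's UMIs were concentrated in few TP cells and spread over many control cells. In TP, 50% of all member UMIs lay in 205 cells, 1.11% of the library, and in control in 4000 cells, 10.2% of the library. At least 1 member UMI was present in 98.3% of control cells and 80.5% of TP cells. These counts were made without thinning, at median depths of 2055 and 4805.5 UMIs, and include the background. Without thinning, 77.4% of control and 40.4% of TP non-epithelial cells had a Krt25 UMI. Sheath-like cells, 15.3% of control and 3.10% of TP cells, held 39.8% of the member UMIs in control and 41.9% in TP. Barcodes set aside for mitochondrial content also carried these keratins, with a sum of 4293 CPM in control and 1530 CPM in TP and a ratio of 0.356 (0.349 to 0.364).

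Over the 61 combinations of cluster and library with at least 50 cells, the abundant members followed each other closely. Pearson's r of log2(CPM + 1) was 0.97 for Krt25 with Krt71, 0.96 for Krt27 with Krt28, 0.95 for Krt25 with Krt28 and 0.87 for Krt71 with Krt73. Krt26 reached at most 0.40, with Krt28, and Krt72 at most 0.60, with Krt73. These points share 2 libraries, their depth and their background, and the values are descriptions. Outside the family, the genes most like the summed members among 13014 compared were Gm36660 (0.89), Kcnk16 (0.88), Lpar6 (0.87), Nudt13 (0.86), Gucd1 (0.85), Csgalnact1 (0.84), Slc30a1 (0.84), Gm47271 (0.83), Cdh6 (0.83) and Ppfia1 (0.83). Lpar6 encodes a receptor for lysophosphatidic acid, Slc30a1 a zinc exporter and Cdh6 a cadherin of cell contacts. For Krt72 the closest were Crym and Prr9, both at 0.72.

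Genes that build or harden the sheath beside the keratins were compared in the same way, and the counts stand beside 0.911% of all genes lower and 1.7% higher over all cells and 0.547% and 0.538% in sheath-like cells. Of 21 such genes 20 were in the files, and over all cells 3 were at least 2-fold lower in TP and 2 at least 2-fold higher, with a median log2 difference of 0.53. The lower ones were Tchh, trichohyalin, with 1219 CPM in control and 410 CPM in TP, Padi4, a peptidylarginine deiminase, with 21.9 and 5.39 CPM, and Cux1, a transcription factor, with 1595 and 574 CPM. The higher ones were Cdsn, corneodesmosin, and Cst6, a protease inhibitor, both also made in the epidermis. Within sheath-like cells none of the 20 passed the limit on either side, with a median of 0.32, and Tchh had a ratio of 1.87 (1.85 to 1.90). Tchh measured 2107 CPM in control and 6036 CPM in TP in cluster 0, and 10201 and 12855 CPM in cluster 15. Among the 20, Tchh, Gata3, Padi1, Padi3, Tgm3 and Cux1 were also the markers that named the sheath-like clusters. Other keratins gave different counts over all cells. Of 12 hair shaft keratins 3 were lower (Krt31, Krt35 and Krt86), of 10 epidermal keratins 7 were higher, Krt1 and Krt10 among them, and of 5 companion layer keratins 4 were higher (Krt6a, Krt6b, Krt16 and Krt17). Of these, Krt6a, Krt6b and Krt16 are among the leading genes of cluster 5, an unnamed cluster whose markers scored highest for the suprabasal epidermis. The fifth, Krt75, a keratin known from the companion layer itself, had a ratio of 0.543 (0.516 to 0.570), and the medulla and companion layer-like share of cells had a ratio of 0.726 (0.640 to 0.821). Among the keratins next to the members on the chromosomes, some of which are counted above, 1 of 6 was higher beside the type I group (Krt10) and 7 of 10 were higher beside the type II group. Transcripts of other layers also differed within the sheath-like cells. There 3 of the 10 epidermal keratins were at least 2-fold higher, Krt10 with a ratio of 2.10 (2.03 to 2.17), Krt1 with 2.45 (2.33 to 2.58) and Krt77 with 2.40 (2.27 to 2.53). None was 2-fold lower, and 8 stood above and 2 below a log2 difference of 0, the latter Krt15 with a ratio of 0.731 (0.618 to 0.862) and Krt5 with 0.937 (0.853 to 1.03). Of 6 hair shaft keratins tested there 4 were at least 2-fold lower, among them the cortex keratin Krt35 with a ratio of 0.216 (0.180 to 0.257). The background of these genes moved the same way. Krt35 measured 188 CPM in control and 40.5 CPM in TP in sheath-like cells, against 163 and 40.1 CPM in the non-epithelial classes. Krt1 measured 316 and 776 CPM, against 305 and 565 CPM. Krt10 measured 813 and 1705 CPM, against 715 and 1154 CPM. The part of such RNA in the members' ratios was not tested.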

How the data were processed

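Control and TP dorsal skin was measured by droplet single-cell RNA sequencing (Chromium 3′ chemistry, version 4), with 15 mice pooled per library. The deposited files hold UMI counts per gene and barcode, which the authors made with Cell Ranger 8.0.1 against mm10 (GRCm38), without normalization. The authors' cell limits come after these files and were applied here: 200 to 8000 genes, and mitochondrial counts no higher than 10%. Doublets had been removed by the authors with DoubletFinder. Here a rewritten form of it removed the 7.5% of barcodes with the highest share of artificial doublets as neighbours, a rate chosen for this work. Kept cells held 106745804 control and 131906003 TP UMIs.

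Both libraries were integrated by reciprocal PCA and clustered at resolution 1 in Seurat 5.3.0 (SeuratObject 5.2.0, R 4.3.3) from 2000 variable genes without the 7 keratins. Names were given by the best-scoring marker list, which needed a score past a fixed limit, at least 3 detected markers, and no surplus of another list's markers among the 10 leading genes. A cluster with a keratin of the 7 among its leading genes and another best class stayed unnamed. In all, 9 clusters stayed unnamed. UMIs were summed per cluster and library. Levels carry exact Poisson intervals, shares Clopper-Pearson intervals, and ratios exact intervals from the binomial distribution of one count given both. With 1 library per group no p-value was computed. The rates of genes past 2-fold cover genes whose UMIs in the libraries summed to 50 or more. To compare detection, cells were thinned to 1000 UMIs each. The scripts were tested on simulated data. Python 3.11.15, numpy 2.4.6, scipy 1.17.1 and pandas 2.3.3 were used, and edgeR 4.0.16 gave TMM factors only.

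The genes named are the 7 members, genes of the fixed lists that differ at least 2-fold or have over 1000 UMIs in sheath-like cells, and the 10 genes of at least 500 UMIs most like the summed members. Crym, Prr9, Krt75 and leading genes of clusters were named after their values were seen. Padi1, Padi3 and Tgm3 were named as markers only. The members and lists were chosen with earlier results of these data known.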

Additional observations from a re-analysis of the deposited data

How the results depend on the processing

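No paired analysis was possible because each group is 1 library. The ratio of TP over control of the summed level over all cells was 0.409 with TMM factors, 0.358 with all barcodes, 0.283 after thinning, 0.142 from the mean of ln(counts per 10000 + 1) taken back to a level, and 0.357 with doublets kept. With the control's cluster shares it turned to 1.10, as did Krt25 (1.14), Krt27 (1.75), Krt72 (1.26) and Krt73 (1.15), and 0 members were 2-fold lower. With a pseudocount of 1 per 10000, 2 members were, with TMM factors 3 and after thinning 5. No share of all genes under the same rule is given beside these counts. The ratio within sheath-like cells was 1.94 with TMM factors, 1.63 with doublets kept, 1.53 at a resolution of 0.5 and 1.53 at 2, 1.44 with the members among the clustering features and 1.47 without integration. The ratio of the shares of sheath-like cells was 0.248 with doublets kept, 0.286 and 0.287 at resolutions of 0.5 and 2, 0.318 with the members among the features and 0.301 without integration. Sheath-like cells then held 38.5%, 43.0%, 32.7%, 41.4% and 45.4% of the control member UMIs, in this order, and 39.6%, 50.9%, 45.8%, 52.7% and 55.7% of those of TP. Other alternatives were chosen after seeing the data. With a naming score of at least 0.85 the ratio within was 1.64, the ratio of shares 0.225, and the UMIs held 51.6% and 54.4%. With the non-epithelial level subtracted, Krt25 in cluster 16 turned from 0.841 to 1.16. The ratio within was 2.05 after that subtraction and 1.41 with the control's shares of the finer clusters, and 42.4% of TP member UMIs were held without barcodes found in both libraries. Without a filter on low counts 1.75% of genes differed 2-fold in either direction, against 2.61% with it. Within sheath-like cells the ratios of Krt25, Krt27, Krt28, Krt71 and Krt73 stayed above 1 under every alternative above that touches them. The ratio of Krt72 there ranged from 0.383 to 2.77, and in 5 settings its interval lay wholly above 1 (doublets kept, a resolution of 0.5, the members among the features, no integration and the lower naming score). Of the values of single members over all cells and within sheath-like cells, 22 stayed within the counting interval of the reported value and 77 left it without changing direction where that interval excluded 1. The causes of these changes were not tested.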
